A study of Mus musculus with 16 samples.

Results

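Wnt proteins are secreted ligands that bind Frizzled receptors on the cell surface, together with the co-receptors Lrp5 and Lrp6 in the branch that stabilises beta-catenin, or with Ror1 and Ror2 in branches that do not. R-spondins are secreted proteins that keep Frizzled receptors at the surface and so strengthen the signal. In the early embryo this pathway drives the formation of the primitive streak and of posterior tissue, and the future forebrain forms where it is kept low. The 37 genes described here are 19 Wnt ligands, 10 Frizzled receptors, the co-receptors Lrp5 and Lrp6, the receptors Ror1 and Ror2, and 4 R-spondins. Their accessible chromatin was taken from omni-ATAC-seq, which marks open DNA by the insertions of a transposase, as peak lists of 16 libraries. In each library the 50000 distinct intervals with the highest deposited −log10 p were kept, and an interval belonged to a gene when its summit lay within 100 kb of that gene and no other protein-coding transcription start site (TSS) was nearer. Windows of 150 bp on either side of the summits were merged over libraries and kept when at least 2 libraries held them. This gave 80590 regions, of which 265 belonged to the 37 genes, with at least 1 region for every gene.

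The libraries came from mouse embryonic stem cells (ESCs) on the way to anterior neural progenitor cells (antNPCs), in 8 groups of 2 libraries. All lines had the B6129S6F1 background and were male, were depleted of feeder cells before plating, and received bFGF until day 3. Tet1 encodes a dioxygenase that oxidises 5-methylcytosine. The groups were wild type (WT, lines WT70 and WT72), Tet1 MUT (clones CM59 and CM69, edited in the catalytic domain of Tet1 from the parent line WT7) and Tet1 KO (tm1Koh allele, lines KO1 and KO15), each on day 2 and day 3. Further groups were WT cells with 3 µM CHIR99021 (CHIR), an inhibitor of GSK3 that activates Wnt signalling, on day 3, and KO cells with 5 µM XAV939 (XAV), an inhibitor of Wnt signalling, on day 3. Both agents were added on day 2. KO1 and KO15 gave all 6 KO libraries, XAV-treated ones included. The CHIR libraries came from WT7 and WT34, so CHIR treatment and cell line cannot be told apart in that comparison. No group held the vehicle alone. The 2 libraries of a group are separate lines or clones, and p-values rest on the spread within groups, pooled over the 8 groups.

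The distinct intervals per library numbered 135359 to 219047, and the −log10 p of the interval at rank 50000 ran from 6.84 in KO day 3 replicate 2 to 21.8 in KO day 2 replicate 1. Read depth is unknown, because the peak lists hold no counts. The targeted gene bore on the labels at 1 region, 3.0 kb downstream of the Tet1 TSS, which had no record in the 6 libraries of the KO lines and a fold enrichment of 3.84 to 4.63 in the other 10. Promoters of epiblast markers were open in most libraries (6 to 8 of 8 per library), as were those of the neural list (2 to 4 of 5) and the primitive streak list (4 to 6 of 6). Of 6 fibroblast promoters, which would mark feeder cells, 4 or 5 were open in each library, with Postn open in 0. Open promoters of Col1a1, Col1a2 and Thy1 stood beside those of Sox2 and Nanog in all 16 libraries, so promoter state alone did not separate these cell types here, and the part of feeder cells in the results below was not tested.

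The windows with the largest differences are given first, as 200 bases around the summit on the plus strand of mm10. The first 6 are the called member regions with the largest difference in any comparison, all of them in CHIR-treated against untreated WT cells. The last pair are the next largest of KO against WT on day 3, added after their values were seen. Capitals mark the letters CTTTGAT or CTTTGAA, a core of the TCF/LEF site through which beta-catenin acts, on either strand, and GGAATG, a core of the TEAD site, on either strand.
Rspo3, 18.7 kb upstream, chr10:29554493-29554692: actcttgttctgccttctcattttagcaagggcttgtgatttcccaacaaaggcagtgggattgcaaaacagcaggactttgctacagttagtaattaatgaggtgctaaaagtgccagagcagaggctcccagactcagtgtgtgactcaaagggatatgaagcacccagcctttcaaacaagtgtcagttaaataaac
Fzd7, 30.5 kb upstream, chr1:59451781-59451980: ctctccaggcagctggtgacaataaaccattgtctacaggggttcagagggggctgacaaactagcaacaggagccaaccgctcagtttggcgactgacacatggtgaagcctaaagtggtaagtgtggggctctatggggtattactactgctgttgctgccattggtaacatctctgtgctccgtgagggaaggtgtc
Fzd10, 5.9 kb downstream, chr5:128606674-128606873: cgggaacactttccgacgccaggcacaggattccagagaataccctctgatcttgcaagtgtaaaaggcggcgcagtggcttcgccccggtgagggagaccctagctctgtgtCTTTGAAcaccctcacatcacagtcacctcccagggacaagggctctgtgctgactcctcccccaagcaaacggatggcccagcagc
Ror2, 28.9 kb downstream, chr13:53256585-53256784: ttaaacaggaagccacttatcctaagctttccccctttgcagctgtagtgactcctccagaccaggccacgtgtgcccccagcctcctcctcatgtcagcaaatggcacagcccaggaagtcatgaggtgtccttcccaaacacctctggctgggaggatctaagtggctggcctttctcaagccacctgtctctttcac
Fzd10, 58.5 kb upstream, chr5:128542275-128542474: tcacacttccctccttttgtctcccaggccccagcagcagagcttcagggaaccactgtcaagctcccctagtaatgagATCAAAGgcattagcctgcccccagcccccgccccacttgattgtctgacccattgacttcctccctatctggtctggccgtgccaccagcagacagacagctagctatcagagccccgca
Wnt2, 57.7 kb downstream, chr6:17972829-17973028: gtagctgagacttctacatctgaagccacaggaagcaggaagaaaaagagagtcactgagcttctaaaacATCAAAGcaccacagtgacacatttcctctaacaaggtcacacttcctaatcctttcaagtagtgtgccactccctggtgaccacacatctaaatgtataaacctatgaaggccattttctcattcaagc
Ror1, 29.4 kb downstream, chr4:100125090-100125289: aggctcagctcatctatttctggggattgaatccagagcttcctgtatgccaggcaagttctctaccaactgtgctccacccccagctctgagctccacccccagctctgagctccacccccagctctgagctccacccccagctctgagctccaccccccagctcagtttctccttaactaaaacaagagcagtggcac
Rspo3, 35.4 kb upstream, chr10:29571139-29571338: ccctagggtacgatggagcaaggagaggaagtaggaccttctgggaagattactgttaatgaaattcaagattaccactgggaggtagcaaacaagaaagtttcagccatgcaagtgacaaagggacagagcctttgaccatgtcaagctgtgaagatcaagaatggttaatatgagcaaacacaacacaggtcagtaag
The TCF/LEF letters were present in 1 copy each in the 2 Fzd10 windows and in the Wnt2 window, and neither set of letters was in the other 5. The Ror1 window holds a short unit repeated in tandem.

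The regions were spread unevenly over the genes. Among the ligands, Wnt11 had 18 regions, of which at most 15 were open in a library, Wnt5a had 15 (at most 10), Wnt3 12 (11) and Wnt5b 12 (10). Wnt7a had 10 regions with at most 7 open, and Wnt3a (7), Wnt4 (6), Wnt7b (8) and Wnt10a (8) had 9 each. Wnt2b (5), Wnt8a (6), Wnt8b (7) and Wnt9a (7) had 7 each, Wnt2 had 6 (4), Wnt6 (4) and Wnt9b (3) had 4 each, Wnt10b had 3 (3), Wnt1 2 (2) and Wnt16 1 (1). Among the Frizzled receptors, Fzd7 had 16 regions (at most 11 open) and Fzd10 13 (10), followed by Fzd9 with 8 (7), Fzd2 (7) and Fzd5 (5) with 7 each, and Fzd4 (6) and Fzd8 (5) with 6 each. Fzd1 (2) and Fzd6 (3) had 3 regions each and Fzd3 had 2 (2). The co-receptors had 5 (Lrp5, at most 4 open) and 3 (Lrp6, 3), and Ror1 (7) and Ror2 (9) had 10 each. The R-spondins had few regions, with 5 for Rspo1 (5) and for Rspo4 (4), 3 for Rspo3 (3) and 2 for Rspo2 (2).

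**Figure D1:**
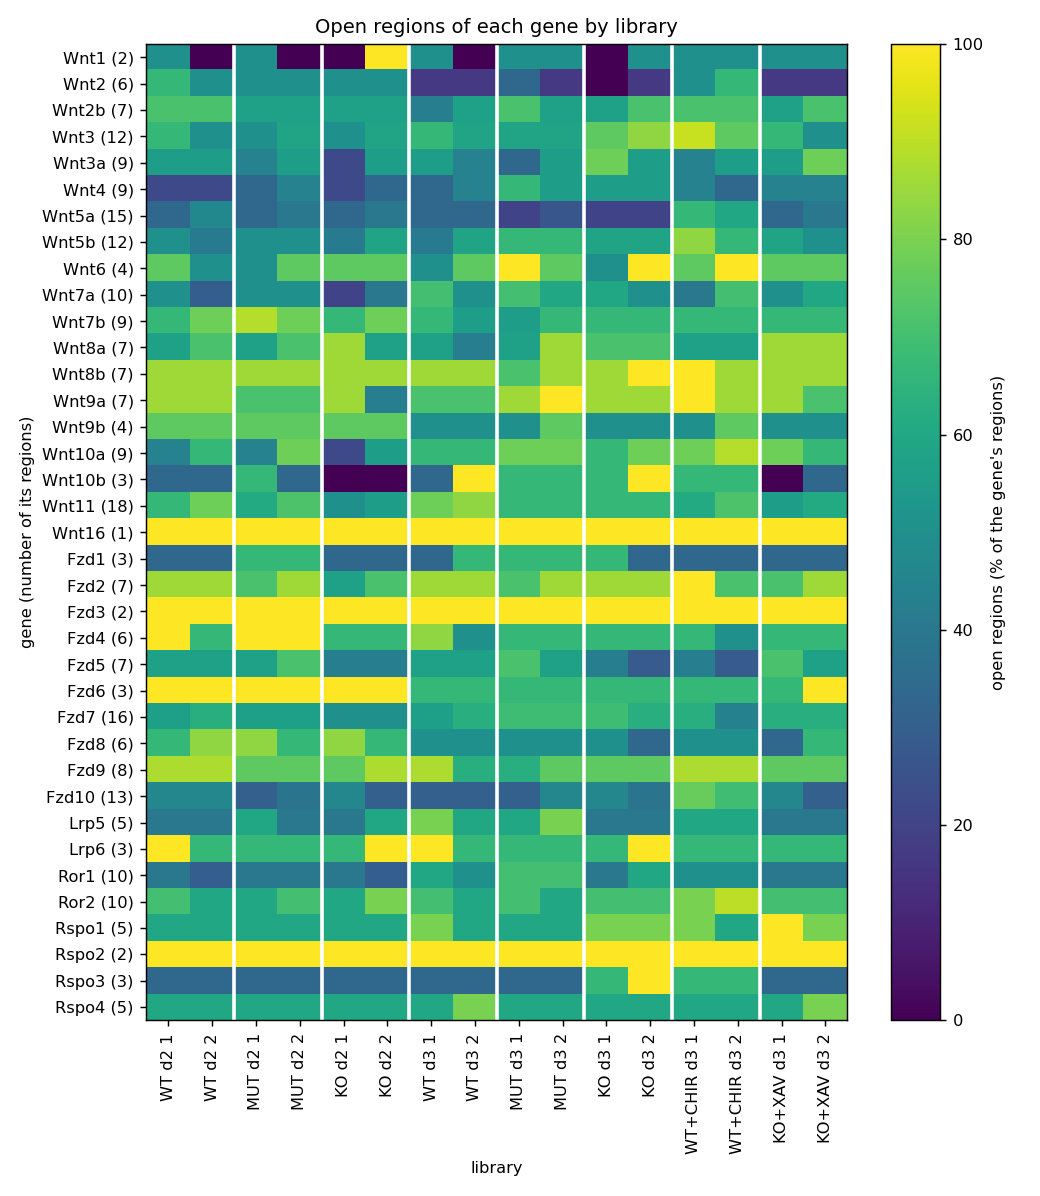
Share of each gene's regions that were open (colour, %) in each of the 16 libraries (columns), with the number of regions of the gene in brackets (rows). Wnt5a and Fzd10 were highest in the CHIR-treated libraries, with 10 and 9 open regions each, while both regions of Rspo2 and of Fzd3 were open in all 16 libraries.

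Regions within 1 kb of a TSS made up 18.5% of member regions (49 of 265) against 23.8% of all regions, and 70.6% (187) lay beyond 3 kb, against 70.3% of all regions. By annotation (GENCODE M21), 151 were intergenic, 85 intronic, 18 in an untranslated region and 11 in a coding exon. Another protein-coding gene also lay within 100 kb of 188 of them, so the assignment to the nearest gene is a convention, and for 40 the second nearest gene was itself a member. A region counted as open in a library when a kept interval overlapped it by at least 1 bp. In all 16 libraries, 69 member regions (26%) were open, against 33.6% of all regions. The summits nearest to the 100 kb limit lay 92540 bp (Ror1), 95160 bp (Wnt5a) and 98262 bp (Fzd5) from the TSS inside it, and 101200 bp (Fzd7), 105595 bp (Fzd7) and 112848 bp (Wnt4) outside it.

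Each region's value in a library was the deposited fold enrichment over local background at its highest summit. Differences are between group means of log2 values centred per library, with values missing or under a common floor set to the floor, so a difference against libraries without a record depends on that floor. Libraries at the floor show no spread between them, so standard errors and p-values are too small at regions where many libraries have no record. A region was called at an adjusted p under 0.05 (two-sided limma test, Benjamini-Hochberg over all 80590 regions, 8 residual degrees of freedom). Gained regions are those open in each library of one group and closed in each library of the group it is compared with, and lost regions the opposite. With 2 libraries against 2, an exact permutation test cannot give a p under 0.33, so gains and losses carry no p.

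On day 3, KO and WT cells differed at member regions in both directions, with the lower share near that of all regions. Of the 265 member regions, 14 were called higher in KO than in WT cells and 7 lower, at 13 genes, where 3.13% and 2.68% of all regions were called higher and lower, respectively. The member calls made up 5.28% and 2.64% of member regions. Of the 14 higher regions, 5 were held by fewer than 4 libraries. With at least 4 libraries required, 8 of 205 member regions were called higher and 9 lower, and the balance of all calls moved from 53.9% to 38.0% higher, so the excess of higher over lower regions depends on that requirement. The median log2 difference was 0.02 over member regions and 0.01 over all regions. By open state, 15 were gained (3.92% of all regions were) and 8 lost (4.22%). Ligands took 6 higher and 4 lower calls among 151 regions, Frizzled receptors 5 and 3 of 71, Ror receptors 1 and 0 of 20, and R-spondins 2 and 0 of 15, both at Rspo3. The 8 regions of Lrp5 and Lrp6 had 0 calls.

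CHIR gave many more. With CHIR, 58 member regions were called higher and 31 lower than in untreated WT cells, at 29 genes, where the background was 13.2% higher and 12.4% lower. The member shares were 21.9% and 11.7%, and the median log2 difference was 0.07 over members and 0.03 over all regions. By open state, 49 were gained (11.0% of all regions) and 24 lost (9.02%). Of the 58 higher regions, 41 were held by fewer than 4 libraries, so they entered the set largely through the CHIR libraries themselves and had to differ. With at least 4 libraries required, 17 of 205 member regions were called higher and 28 lower, and the balance of all calls moved from 51.6% to 28.6% higher. The excess of higher over lower member regions therefore depends on that requirement.

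XAV in KO cells gave calls in the range of those of KO itself. Of the member regions, 7 were called higher and 12 lower in XAV-treated than in untreated KO cells, at 13 genes, against 3.37% and 3.28% of all regions. By open state, 10 were gained (4.89%) and 16 lost (4.16%). The median log2 difference was −0.08 over members and −0.02 over all regions. Of the 12 lower regions, 5 were held by fewer than 4 libraries. With at least 4 libraries required, 7 were called higher and 9 lower, and the balance of all calls moved from 50.6% to 67.4% higher.

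The remaining comparisons gave few calls. In MUT against WT on day 3, in KO against WT on day 2 and in MUT against WT on day 2, limma called 0 member regions, where 0.0248%, 0.0174% and 0.00496% of all regions were called. At an unadjusted p under 0.05 there were 14, 12 and 6 member regions (5.28%, 4.53% and 2.26%), against 6.43%, 5.17% and 3.55% of all regions. Open state changed at 6, 8 and 10 of them, respectively, against backgrounds of 3.82%, 4.14% and 3.34%. From day 2 to day 3 in WT cells, 1 member region was called higher and 4 lower, against 0.687% and 1.71% of all regions, while 5 were gained (3.46%) and 13 lost (3.96%).

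**Figure D2:**
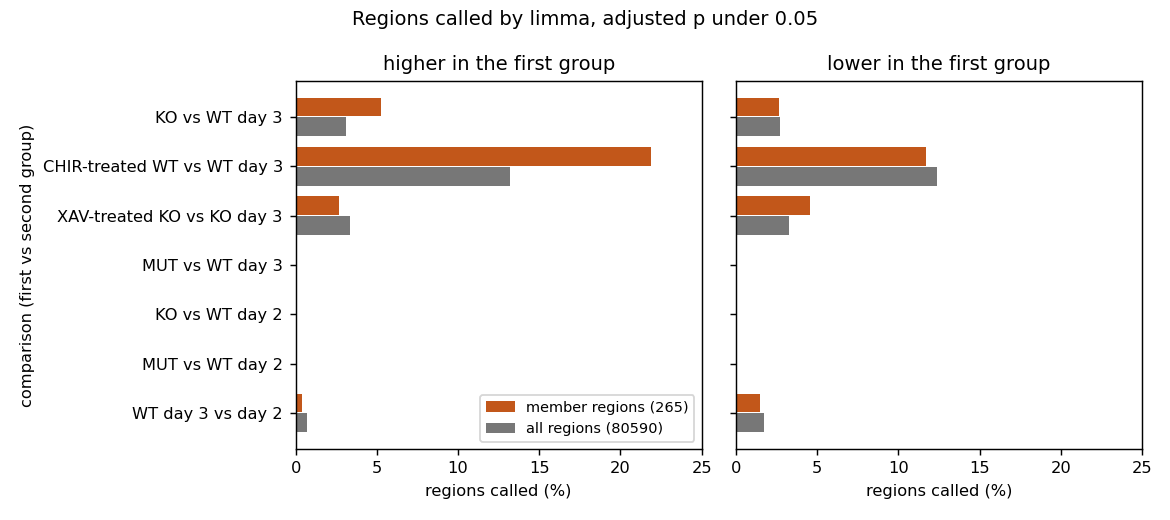
Percentage of regions called higher (left) or lower (right) in the first group of each comparison, for the 265 member regions (orange) and all 80590 regions (grey), with no error because each bar is a single share. Member regions exceeded all regions most for those higher with CHIR (21.9% against 13.2%).

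Rspo3 held the member region with the largest difference in any comparison. Rspo3 encodes an R-spondin that is needed for normal vessel and placenta development. The intergenic region 18.7 kb upstream (chr10:29554443-29554762) had no record in the day 2 libraries or in WT cells on day 3, and the MUT libraries had 3.74 and no record. In KO cells its fold enrichment was 6.12 and 5.76, in CHIR-treated WT cells 12.3 and 13.9, and in XAV-treated KO cells none and 3.36. The KO and CHIR libraries thus lay above every other library, without overlap. The region was held by fewer than 4 libraries, all of them KO or CHIR libraries of day 3. Its differences between these groups and the others were therefore largely built into its selection. The log2 difference was 1.37 ± 0.18 (SE, n = 2 and 2) for KO minus WT (limma adjusted p = 0.00054), 2.46 ± 0.18 for CHIR-treated minus untreated WT (adjusted p = 1.49e-07) and −1.21 ± 0.18 for XAV-treated minus untreated KO (adjusted p = 0.00139).

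A second intergenic region, 35.4 kb upstream of Rspo3 (chr10:29571089-29571406), had a record in 1 of the 6 day 2 libraries (3.07, WT replicate 1). On day 3 it had none in WT, MUT or XAV-treated KO cells, 8.54 and 4.68 in KO cells, and 4.22 and 3.74 with CHIR. It was higher by 1.46 ± 0.14 in KO than in WT (adjusted p = 3.52e-05), by 0.74 ± 0.14 with CHIR (adjusted p = 0.00118), and XAV-treated minus untreated KO was −1.46 ± 0.14 (adjusted p = 3.62e-05). This region was open in the KO libraries of day 3 and in no other, so it passed the requirement of 2 libraries only through them, and its differences of KO from WT and from XAV-treated KO were built into its selection. At this region the KO values were above the CHIR values, while at the nearer region the CHIR values were the higher. The third region of Rspo3, at its promoter, was open in all 16 libraries. The next gene from both distal regions, Rnf146, lay 192151 bp and 208797 bp away. The comparisons with KO share the KO libraries, and those with WT share the WT libraries, so their values are set side by side and are not independent.

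Ror1, a receptor tyrosine kinase-like protein that binds Wnt5a, had the largest KO difference. The region in its intron 29.4 kb downstream of the TSS (chr4:100125026-100125368) lay between 6.20 and 8.98 in the 6 day 2 libraries. On day 3 it had 3.75 and no record in WT, 5.44 and 6.10 in MUT, 10.6 and 6.33 in KO, none in both CHIR libraries, and 6.04 and 6.95 in XAV-treated KO cells. All day 3 libraries of MUT and KO, with or without XAV, were therefore above WT. The difference was 1.61 ± 0.21 for KO minus WT (adjusted p = 0.000426), and −1.32 ± 0.21 for WT day 3 minus day 2 (adjusted p = 0.00683). CHIR (−0.24 ± 0.21, adjusted p = 0.465) and XAV (−0.56 ± 0.21, adjusted p = 0.146) did not pass. Its window holds the tandem repeat printed above.

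Another intronic region of Ror1, 22.8 kb downstream (chr4:100118449-100119022), went the other way with time. It had 3.51 and no record in WT on day 2, and 7.72 and 6.00 on day 3, a difference of 1.22 ± 0.28 (adjusted p = 0.0388). KO cells had 13.0 and 9.64 on day 3, which did not pass against WT (0.85 ± 0.28, adjusted p = 0.103), and XAV-treated KO cells had 5.17 and 6.12 (−1.21 ± 0.28, adjusted p = 0.0188).

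Wnt3 and Wnt3a, ligands of the primitive streak, had intronic regions that were higher in KO and with CHIR. At Wnt3, which is required for streak formation, the regions 34.5 kb and 40.9 kb downstream of the TSS (chr11:103808523-103808916 and chr11:103814889-103815251) had no record in any day 2 library or in WT on day 3. The nearer had 3.52 and 4.38 in KO and 5.00 and 6.29 with CHIR, 2.34 and no record in MUT, and no record with XAV. The farther had 5.83 and 2.92 in KO and 6.65 and 6.83 with CHIR, 2.73 and no record in MUT, and 2.54 and no record with XAV. Both were called higher in KO (0.78 ± 0.16, adjusted p = 0.0114, and 0.85 ± 0.14, adjusted p = 0.00316) and with CHIR (1.24 ± 0.16, adjusted p = 4.78e-05, and 1.51 ± 0.14, adjusted p = 2.01e-06), and lower with XAV (adjusted p = 0.0102 and 0.00281). The farther region was held by fewer than 4 libraries, so its differences were partly built into its selection. Outside the KO and CHIR libraries, the nearer region had a record only in MUT (2.34). Its differences were therefore partly built in as well. The differences of both regions are set against the floor in the low groups, and the KO and XAV calls were lost with the floor at the 10th percentile. The KO difference was then 0.30 at the nearer region (adjusted p = 0.316) and 0.32 at the farther (adjusted p = 0.256), and XAV had an adjusted p of 0.282 and 0.23.

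At Wnt3a, which maintains posterior and neuromesodermal progenitors, the intronic region 16 kb downstream (chr11:59274640-59274971) had 3.77 and no record in WT on day 3, 6.33 and 3.57 in KO, 8.81 and 7.70 with CHIR, and 3.93 and 3.35 with XAV. WT and KO overlapped in fold enrichment, and the called difference was 0.81 ± 0.19 (adjusted p = 0.0216). With CHIR it was 1.56 ± 0.19 (adjusted p = 2.43e-05). The region was held by fewer than 4 libraries, so these differences can be partly built into its selection. XAV did not pass (−0.61 ± 0.19, adjusted p = 0.076). A second intronic region of Wnt3a, 6.4 kb downstream, dropped from 5.34 and 6.82 on day 2 to none and 2.90 on day 3 in WT cells (−1.02 ± 0.23, adjusted p = 0.0353), and was between 4.68 and 5.58 in the other day 2 libraries.

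Among the neural Wnt ligands, Wnt7a and Wnt8b each had a distal region higher in KO. The intergenic region 62.7 kb downstream of Wnt7a (chr6:91348452-91348769) had none and 2.88 in WT, none and 3.67 in MUT, 5.46 and 5.90 in KO, 5.97 and 6.33 with CHIR, and 3.20 and 2.70 with XAV. KO and CHIR libraries were above all others, including day 2 (at most 2.41). The region may have entered the set through those libraries, so its differences can be partly built into its selection. The differences were 1.16 ± 0.19 for KO (adjusted p = 0.00319), 1.22 ± 0.19 for CHIR (adjusted p = 0.000314) and −1.17 ± 0.19 for XAV (adjusted p = 0.00271). The region 21.9 kb downstream of Wnt8b (chr19:44515179-44515508) had a record outside KO and CHIR only in MUT replicate 1 on day 3 (2.20), with 4.46 and 3.37 in KO and 4.52 and 5.36 with CHIR. It was higher by 0.76 ± 0.07 in KO (adjusted p = 2.15e-05). The region entered the set largely through the KO and CHIR libraries, so this difference was largely built into its selection.

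Wnt5a and Wnt11, which act mainly in the branches without beta-catenin during gastrulation, had 3 of the 7 regions called lower in KO. The others were at Fzd7 (2), Fzd5 (1) and Wnt8a (1). The region 95.2 kb upstream of Wnt5a, inside an intron of Erc2 (chr14:28409413-28409744), ran from 5.88 to 10.5 on day 2. On day 3 it had 7.27 and 6.67 in WT, 5.44 and 3.66 in MUT, 3.86 and no record in KO, 2.14 and no record with CHIR, and 8.64 and 7.95 with XAV. WT and XAV-treated KO libraries lay above the KO and CHIR libraries, with MUT between or beside them. The differences were −1.19 ± 0.23 for KO (adjusted p = 0.00735), −1.47 ± 0.23 for CHIR (adjusted p = 0.00025) and 1.36 ± 0.23 for XAV (adjusted p = 0.00283).

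The region 10.7 kb upstream of Wnt11 (chr7:98824272-98824589) had 6.13 and 4.71 in WT, 5.13 and 3.48 in MUT, 3.12 and no record in KO, none with CHIR, and 6.44 and 8.20 with XAV. The log2 difference was −0.97 ± 0.24 for KO minus WT (adjusted p = 0.031), −1.10 ± 0.24 for CHIR (adjusted p = 0.00381) and 1.32 ± 0.24 for XAV (adjusted p = 0.00479). A region 65.6 kb upstream of Wnt11 was also called lower in KO (−0.88 ± 0.22, adjusted p = 0.0356) and with CHIR (−1.12 ± 0.22, adjusted p = 0.002). Wnt11 had 2 lower and no higher calls among its 18 regions in KO, and 4 of each with CHIR.

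Wnt8a, an early ligand of the streak, had calls in both directions within 2 kb of each other. The region in its coding exon 5.2 kb downstream of the TSS (chr18:34547272-34547646) had 6.33 and 3.87 in WT and 2.22 and no record in KO (−0.98 ± 0.27, adjusted p = 0.0492, or 0.0509 with cell line as a block), with 2.64 and 4.96 in MUT, 3.57 and 4.31 with CHIR, while XAV-treated KO cells had 4.20 and 5.35. The region 7.1 kb downstream (chr18:34549166-34549560) had 2.59 and 3.16 in WT, 5.12 and 4.43 in KO (0.84 ± 0.20, adjusted p = 0.0269), and 5.28 and 3.94 in MUT. The MUT values there overlapped those of KO.

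Of the Frizzled receptors, Fzd7, a Frizzled expressed in pluripotent cells, had 5 of the 8 KO calls. Neighbouring regions upstream of it were called in opposite directions. The region 13.0 kb upstream (chr1:59469267-59469647) had 7.15 and 6.16 in WT, 5.96 and 6.45 in MUT, 3.03 and 2.78 in KO, none with CHIR, and 8.24 and 7.24 with XAV. Both KO libraries lay below the WT and MUT libraries, the log2 difference of KO minus WT was −1.06 ± 0.18 (adjusted p = 0.00411), and XAV-treated KO cells were higher than KO by 1.19 ± 0.18 (adjusted p = 0.00163). The region 11.2 kb upstream (chr1:59470919-59471443) had no record on day 2, 2.85 and 2.86 in WT, none and 3.18 in MUT, 4.95 and 4.10 in KO, 6.96 and 8.24 with CHIR, and no record with XAV. It was higher in KO by 0.79 ± 0.13 (adjusted p = 0.0023) and with CHIR by 1.49 ± 0.13 (adjusted p = 6.62e-07), and lower in XAV-treated than in untreated KO cells (−0.98 ± 0.13, adjusted p = 0.000443). This region was open only in the KO and CHIR libraries of day 3, so these differences were largely built into its selection.

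Further upstream of Fzd7, the region at 33.4 kb (chr1:59448805-59449240) was open in 14 libraries, with 9.62 and 8.56 in WT, 4.84 and 4.74 in KO, 7.76 and 9.08 with XAV, and no record with CHIR. It was lower in KO (−0.79 ± 0.18, adjusted p = 0.0236) and with CHIR (−1.86 ± 0.18, adjusted p = 3.62e-06), while XAV did not pass (0.59 ± 0.18, adjusted p = 0.0805). A region 9.8 kb upstream had 3.34 and 2.96 in WT and 6.28 and 5.01 in KO (0.97 ± 0.22, adjusted p = 0.0205), and a region in the untranslated region of Fzd7, 2.7 kb downstream, had the smallest called difference (0.21 ± 0.06, adjusted p = 0.0487). The latter was held by fewer than 4 libraries, so its difference can be partly built into its selection.

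Fzd5, Fzd8 and Fzd9 supplied the other Frizzled calls. The region 67.7 kb upstream of Fzd5, in an intron of Plekhm3 (chr1:64805276-64805597), had 6.85 and 4.00 in WT, 2.90 and no record in KO, none and 2.62 with CHIR, while XAV-treated KO cells had 6.86 and 7.93. The differences were −0.99 ± 0.22 for KO (adjusted p = 0.0179), −1.02 ± 0.22 for CHIR (adjusted p = 0.00357) and 1.40 ± 0.22 for XAV (adjusted p = 0.00186). The region 40.3 kb upstream of Fzd9 (chr5:135291341-135291678) had 5.65 and 3.15 in WT, 8.96 and 6.41 in KO, and 7.79 and 7.87 with CHIR, and was higher in KO by 0.98 ± 0.25 (adjusted p = 0.0356). The region 1.0 kb upstream of Fzd8 was the called KO region nearest to a TSS, with none and 2.49 in WT and 3.91 and 2.62 in KO (0.43 ± 0.11, adjusted p = 0.0281).

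Leaving out a library asked how far these calls rested on single lines, with the regions and the floor kept fixed. It could not test how regions were selected, and both Rspo3 regions and the farther Wnt3 region were held by fewer than 4 libraries. The differences at Wnt8b and at the Fzd7 region 11.2 kb upstream were also largely built into selection. That at Wnt7a can be built in partly. Where both WT libraries sat at the floor, leaving either out gave the same difference (0.76 at Wnt8b). The calls of 8 of the 21 regions in KO against WT held in all 4 such fits: those of Rspo3 (both), Wnt7a, Wnt8b, the farther Wnt3 region, Ror1, and the Fzd7 regions 13.0 kb and 11.2 kb upstream. With the floor at the 10th percentile, 7 of the 21 calls were lost: those of both Wnt3 regions, the nearer Wnt11 region (−0.57, adjusted p = 0.192), Fzd5 (−0.54, adjusted p = 0.175), Wnt8a 5.2 kb downstream (−0.46, adjusted p = 0.237), Fzd8 (0.02, adjusted p = 0.766) and Fzd7 2.7 kb downstream (adjusted p = 1). Without WT replicate 1 or without WT replicate 2, 12 member regions were called. Without KO replicate 1 it was 17, and without KO replicate 2, the library with the lowest −log10 p at rank 50000, it was 19. Among regions with a record in all 16 libraries, 4 of 182 were called, 2 in each direction.

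**Figure D3:**
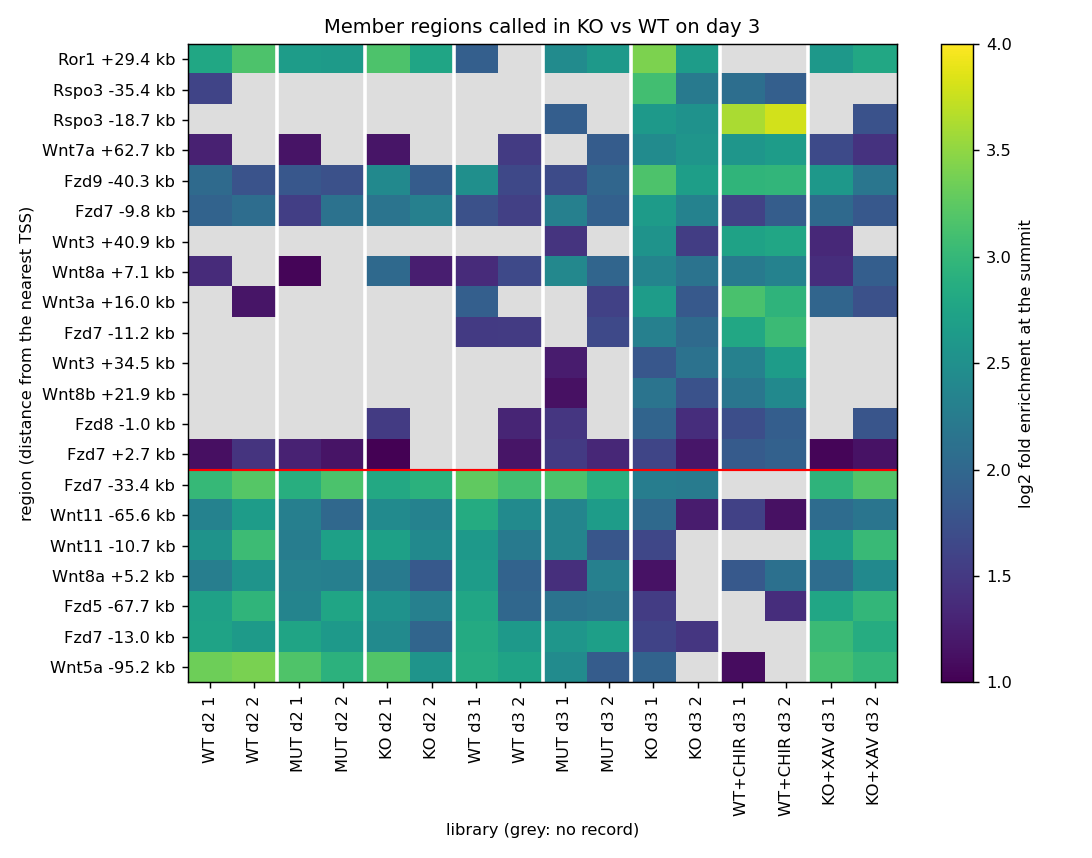
Log2 fold enrichment at the summit (colour) of the 21 member regions called in KO against WT on day 3 (rows, with distance from the nearest TSS) in each library (columns), grey where the list holds no record. Regions above the red line were higher in KO and those below it lower. The Rspo3 region 18.7 kb upstream has its highest values in the CHIR columns (12.3 and 13.9 before the log).

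**Figure D4:**
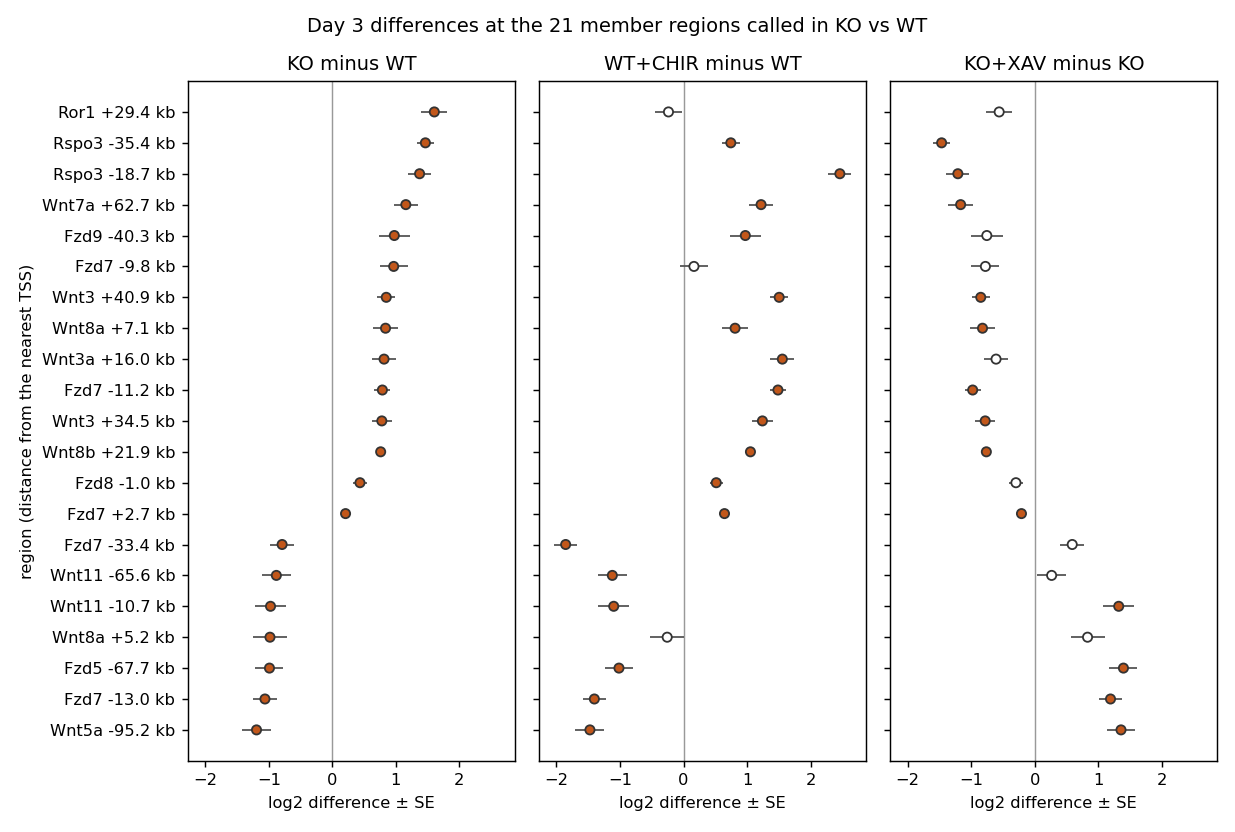
Log2 differences (points) with standard errors (bars, 2 libraries a group) of the same 21 regions for KO minus WT, CHIR-treated WT minus WT and XAV-treated KO minus KO, filled where the adjusted p was under 0.05. The left and right panels share the KO libraries and the left and middle panels the WT libraries, so the panels are not independent. Ror1, 29.4 kb downstream, was higher in KO (1.61) with no called difference with CHIR (−0.24).

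With CHIR, several regions were called at single genes. Fzd10, a Wnt receptor of the dorsal neural tube, had 7 of its 13 regions called higher and 1 lower, the most higher calls of any member. The region 5.9 kb downstream (chr5:128606624-128606934) had no record in WT on day 3, 10.7 and 8.61 with CHIR, and at most 3.35 in the other libraries. The region 58.5 kb upstream (chr5:128542147-128542524) had none in WT and 8.11 and 9.24 with CHIR. The differences were 2.01 ± 0.19 (adjusted p = 2.35e-06) and 1.87 ± 0.13 (adjusted p = 8.14e-08). In KO cells these regions had none and 3.22, and no record, and neither passed against WT (adjusted p = 0.391 and 1).

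Wnt5a followed with 6 regions called higher with CHIR and 3 lower among 15. The region 86.1 kb upstream, in an intron of Erc2 (chr14:28418440-28418766), had 6.80 and 9.0 with CHIR and no record in any other library (1.72 ± 0.08, adjusted p = 1.74e-09). The same held for a region in an intron of Wnt10a (4.2 kb downstream, chr1:74797413-74797726), with 7.55 and 8.29, and for a region in an intron of Ror2, the receptor partner of Wnt5a (28.9 kb downstream, chr13:53256535-53256839), with 8.41 and 9.67. Such regions passed the requirement of 2 libraries only through the CHIR group, so the difference was built into their selection.

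At Wnt2, which had 3 of 6 regions called higher and none lower with CHIR, neighbouring regions 57.7 kb and 59.0 kb downstream (chr6:17972779-17973080 and chr6:17971477-17971777) had 8.20 and 9.03, and 9.0 and 8.18, with CHIR. Elsewhere only KO replicate 1 on day 3 had a record at them, of 2.25 and 4.19. At Fzd7, the region 30.5 kb upstream (chr1:59451731-59452054) had 8.84 and 10.6 with CHIR and a single other record (1.98, WT day 2 replicate 1), a difference of 2.03 ± 0.07 (adjusted p = 1.45e-10). Fzd7 had 4 regions called higher and 5 lower with CHIR. The 10 regions with the largest CHIR differences kept their direction in every leave-one-out fit. Those fits used the same regions and floor, so they could not test the selection. With at least 4 libraries required, 1 of the 10 remained, the lower Fzd7 region 33.4 kb upstream. The others, at Rspo3, Fzd10, Fzd7, Ror2, Wnt2, Wnt10a and Wnt5a, were held by fewer libraries, so their differences were largely built into their selection.

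Some genes had lower calls alone with CHIR. Fzd4 and Fzd5 each had 2 lower and no higher calls, and Wnt4 had 1. Lrp5 had 2 in each direction, and the region over its TSS (41 bp upstream, chr19:3686445-3686988) went from 4.40 and 4.30 to 3.13 and 2.30 (−0.57 ± 0.17, adjusted p = 0.0271). Rspo1 had 1 higher and 2 lower. No region of Wnt7b, Wnt10b, Wnt16, Fzd1, Fzd3, Fzd6, Lrp6 or Rspo2 was called with CHIR, and these 8 genes had 0 calls in KO against WT on day 3.

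**Figure D5:**
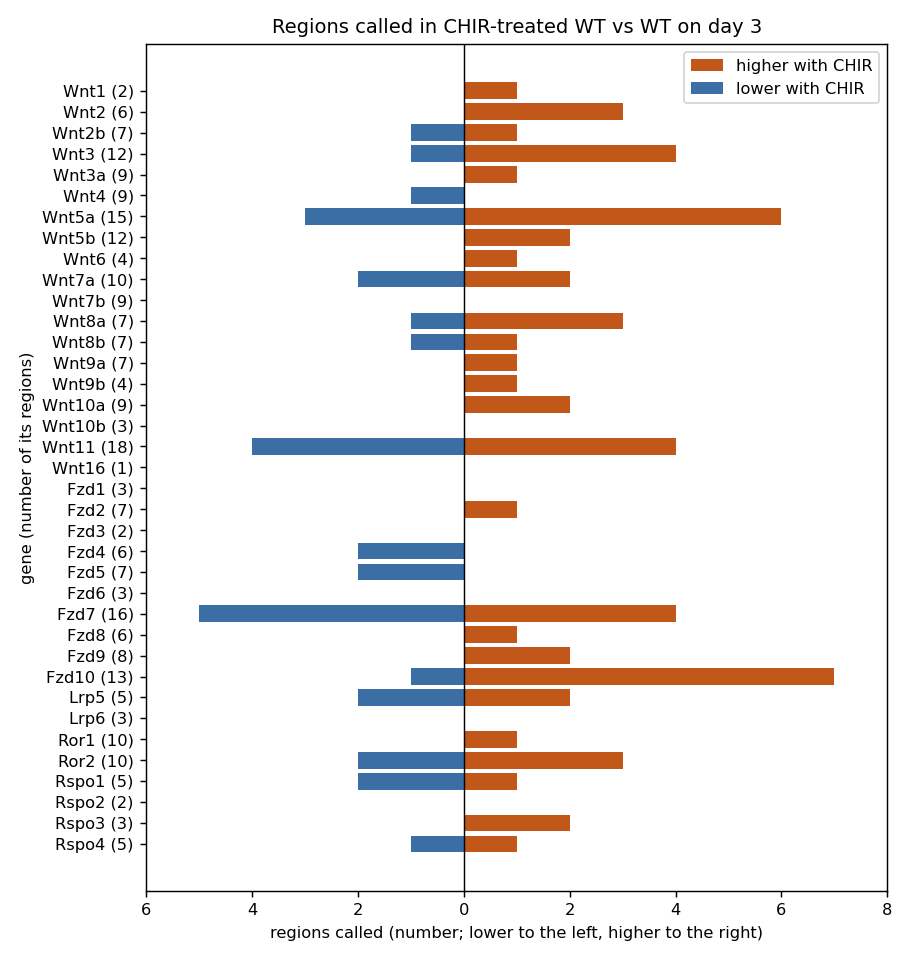
Number of regions called higher (right, orange) and lower (left, blue) in CHIR-treated against untreated WT cells on day 3 for each of the 37 genes, with its number of regions in brackets. Fzd10 (7 higher, 1 lower) and Wnt5a (6 and 3) had the most higher calls, and Fzd7 (4 and 5) the most lower calls.

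XAV against untreated KO also called regions that were not called in KO against WT, and the calls of the 3 given here were each lost in 3 of 4 leave-one-out fits. The region 98.3 kb upstream of Fzd5 (chr1:64835844-64836184) had 7.40 and 4.32 in KO and 13.9 and 13.9 with XAV (1.08 ± 0.22, adjusted p = 0.0108), beside 13.6 and 7.67 in WT. The region 12.1 kb upstream of Wnt4, a ligand of kidney and gonad development, had 7.55 and 3.43 in KO and 2.95 and no record with XAV (−1.07 ± 0.24, adjusted p = 0.0156). It was held by fewer than 4 libraries, so this difference can be partly built into its selection. A region 12.6 kb upstream of Wnt8a had 5.15 and 3.24 in KO and 8.20 and 9.17 with XAV (0.87 ± 0.19, adjusted p = 0.0159). WT values there were 4.85 and 4.00, so the XAV-treated libraries stood above untreated WT as well as KO. Of the 19 calls with XAV, 9 held in every such fit, and 5 were lost with the floor at the 10th percentile, among them Wnt4 (−0.63, adjusted p = 0.0871). Without XAV replicate 1 the number of called member regions fell to 11 and without XAV replicate 2 to 12, against 19 with all libraries, and 22 and 18 were called without KO replicate 1 or 2.

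From day 2 to day 3 in WT cells, besides the Ror1 and Wnt3a regions above, the region 50.6 kb downstream of Wnt5a (chr14:28561877-28562188) went from 6.37 and 7.14 to no record (−1.34 ± 0.24, adjusted p = 0.0121). It had no record in any other day 3 library but those with XAV (3.34 and 6.73). This Wnt5a region was held by fewer than 4 libraries, so its drop in WT cells can be partly built into its selection. In the untranslated region of Wnt9b, 19.1 kb downstream (chr11:103730525-103730892), 5.66 and 5.67 became 3.14 and 3.06 (−0.78 ± 0.17, adjusted p = 0.0364). None of the 5 calls held in every leave-one-out fit: the count was 1 without WT day 2 replicate 1, 0 without its replicate 2, 5 without WT day 3 replicate 1 and 0 without its replicate 2. Replicate 2 of each day 2 group has a merged list per its name.

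In the 3 comparisons without a call, the lowest p values were as follows. In MUT against WT on day 3, the region 13.0 kb upstream of Fzd9 had 8.09 and 5.33 in WT and 3.40 and 2.74 in MUT (−1.08 ± 0.21, adjusted p = 0.174), and the Ror1 region 29.4 kb downstream had 0.98 ± 0.21 (adjusted p = 0.233). In KO against WT on day 2, the region 21.1 kb upstream of Rspo1 had 8.47 and 9.47 in WT and 6.91 and 5.33 in KO (−0.47 ± 0.12, adjusted p = 0.455), and the region 22.6 kb upstream of Wnt2 had 6.80 and 6.12, and 4.23 and no record (−0.98 ± 0.25, adjusted p = 0.478). In MUT against WT on day 2, the Wnt5a region 50.6 kb downstream (6.37 and 7.14 against 3.33 and 4.58) and the Fzd10 region 63.5 kb upstream (6.09 and 5.34 against 3.57 and 2.75) both had an adjusted p of 1.

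Of the 49 member regions within 1 kb of a TSS, 29 were open in all 16 libraries. Of the 49, 1 was called in KO against WT, 6 with CHIR and 1 with XAV. The shares among all regions within 1 kb of a TSS were not computed, so these promoter counts have no background to be read against. Every R-spondin promoter was open throughout. Among ligand promoters open in part of the libraries, Wnt1, a ligand of the midbrain and hindbrain, went from 4.44 and 3.09 in WT to 5.25 and 5.41 with CHIR (0.60 ± 0.19, adjusted p = 0.0339), with 4.05 and 2.77 in KO. The Wnt8a region 901 bp upstream had 4.29 and 2.86 in WT, 5.24 and 4.29 in KO, and 5.69 and 5.23 with CHIR (0.72 ± 0.23, adjusted p = 0.0323). Wnt10b, 542 bp downstream, was open in both WT, MUT and KO libraries on day 3 and in neither XAV library, with 3.93 and 3.19 in KO and 2.63 and 3.12 with XAV (−0.52 ± 0.14, adjusted p = 0.0438), a call lost with the floor at the 10th percentile (−0.10, adjusted p = 0.382).

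The other ligand promoters open in part of the libraries had no call in any comparison. The Wnt2b regions 200 bp downstream and 733 bp upstream, each open in 12 libraries, ran from 2.53 to 5.70 and from 3.43 to 4.85. Wnt2 (216 bp downstream, open in 15) ran from 4.42 to 7.47, Wnt6 (220 bp upstream, open in 14) from 2.71 to 4.82, and Wnt11 from 3.10 to 4.82 (771 bp upstream, open in 13) and from 2.53 to 3.99 (123 bp downstream, open in 9). Wnt7a regions 112 bp downstream and 306 bp upstream were open in 6 libraries each and ran from 2.58 to 4.26 and from 2.77 to 5.55. Wnt3a regions 698 bp and 75 bp downstream, open in 4 and 5, ran from 2.82 to 4.99 and from 2.64 to 4.52. Wnt5b had regions 879 bp downstream (open in 3, 2.65 to 4.02), 506 bp downstream (open in 9, 2.42 to 4.91) and 39 bp upstream (open in 15, 3.74 to 6.59). These promoters had a record in every library, also where they did not count as open.

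The rest of the pathway is given by a list of 55 further Wnt pathway genes (transducers, antagonists, targets and planar polarity genes), which had 413 regions. In KO against WT on day 3, 25 were called higher (6.05%) and 8 lower (1.94%), CHIR gave 85 higher (20.6%) and 46 lower (11.1%), and XAV gave 12 (2.91%) and 29 (7.02%). From day 2 to day 3 in WT cells, 1 was called higher and 6 lower. The other comparisons called 0. The largest higher KO differences were 87.7 kb downstream of Dkk1 (1.92 ± 0.14, adjusted p = 4.1e-06), which encodes a secreted Wnt antagonist, and 58.9 kb downstream of Sfrp1 (1.85 ± 0.21, adjusted p = 0.000182), which encodes another. The largest lower differences were at Bcl9 (−1.10 ± 0.24, adjusted p = 0.0152) and Ctnnb1 (−1.07 ± 0.21, adjusted p = 0.00837), a beta-catenin cofactor and beta-catenin itself. With CHIR the largest were at Prickle2 (2.56 ± 0.10, higher) and Dkk1 (2.52 ± 0.14, higher), and at Lef1, a transcription factor of the pathway, at 2 regions (−1.5 ± 0.19 and −1.44 ± 0.18). Counted by gene, Lef1 had 9 regions called higher and 6 lower with CHIR, and Ctnnb1 had 2 higher and 1 lower in KO.

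The printed letters were counted in all regions over the same 200 bases. The TCF/LEF letters were in 7.46% of all 80590 windows and in 10.2% of member windows (27 of 265). Among member regions higher with CHIR they were in 16 of 58 (27.6%), where all regions higher with CHIR had 20.8%, and among those lower with CHIR in 2 of 31 (6.45%), where all had 5.54%. Among member regions higher in KO they were in 1 of 14, where all regions higher in KO had 17.9%. The TEAD letters were in 13.6% of all windows and 12.1% of member windows, and in 9 of 31 member regions lower with CHIR (29.0%), where all had 25.8%. A match is a description of the letters, and windows without one may hold other forms of the site.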

How the data were processed

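Peak lists of 16 omni-ATAC-seq libraries were analysed. Per the labels and the study's methods, the authors processed reads with the ENCODE ATAC-seq pipeline on mm10 and deposited 1 list per library. Aligner and caller versions were not named in those sources. The submitters' processing notes name DiffBind 3.0.15, HOMER 2 and deepTools 3.4.3. The deposited values used were the fold enrichment (a ratio to local background) at each summit and the −log10 p. The deposited lists of the authors' own differential regions were not used. Replicate 2 of each day 2 group is a merged list by its name.

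The 50000 distinct intervals with the highest −log10 p were kept per library, windows of 150 bp around summits were merged, and regions held by at least 2 libraries were assigned to the nearest GENCODE M21 protein-coding TSS within 100 kb. Log2 values were centred per library, a common floor at the 1st percentile replaced missing and lower values, and 8 group means were fitted with limma 3.58.1 in R 4.3.3 (8 residual degrees of freedom, Benjamini-Hochberg over all regions, threshold 0.05). The code was tested on simulated data. Python 3.11.15, numpy 2.4.6, pandas 2.3.3 and matplotlib 3.10.9 were used.

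The member genes and lists were chosen with earlier results of these data known. Regions were named by rule: up to 10 called regions per comparison by size of the difference, ligand and R-spondin promoters open in part of the libraries (those without a call by their range), and the 2 lowest p where none was called. Further called KO regions were named after their values were seen. WT, MUT and KO lines were shared between day 2 and day 3, and KO lines between untreated and XAV-treated cells, so libraries of the same line were paired. Deviations from the group means of same-line libraries correlated at 0.305 (KO, day 2 and day 3), 0.0937 (WT, day 2 and day 3), 0.0144 (MUT, day 2 and day 3) and 0.021 (KO and XAV-treated KO). Libraries that shared only a replicate number gave −0.0558 (MUT and WT, day 3) to 0.252 (KO and WT, day 2), so these values did not single out the line.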

Additional observations from a re-analysis of the deposited data

Results flagged for a closer look

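The KO minus WT difference itself changed between day 2 and day 3 at 4 member regions, by an interaction term in the limma fit that was added after the data were seen (adjusted p under 0.05), where 1.29% of all regions did. The day 3 minus day 2 change in the log2 difference was 1.37 ± 0.26 (SE) at the Rspo3 region 18.7 kb upstream (adjusted p = 0.0175) and 1.59 ± 0.20 at the Rspo3 region 35.4 kb upstream (adjusted p = 0.00102). It was 0.76 ± 0.10 at the Wnt8b region 21.9 kb downstream (adjusted p = 0.00116) and 1.52 ± 0.29 at the Ror1 region 29.4 kb downstream (adjusted p = 0.0204). The Rspo3 region 35.4 kb upstream counted as open in the untreated day 3 KO libraries alone and entered the set through them, so its change between days was built into its selection. The Rspo3 region 18.7 kb upstream was held only by KO and CHIR libraries of day 3, so its change was partly built in as well. The Wnt8b region had almost no record outside the KO and CHIR libraries of day 3, so its change was also partly built in. Groups of 2 libraries were too small to look for single libraries far from the rest.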

How the results depend on the processing

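Counts of called member regions moved most with the regions that could enter. With 25000 intervals kept per library, 119 member regions were tested and 6 were called in KO against WT on day 3, 35 with CHIR, 8 with XAV and 1 from day 2 to day 3 in WT cells. With a record required in all 16 libraries, 182 were tested and 4, 26, 3 and 0 were called, respectively. With at least 4 libraries required, 45 were called with CHIR. Fewer regions were tested in each of these settings. Leaving out 1 library at a time gave 12 to 19 calls in KO against WT, 66 to 69 with CHIR, 11 to 22 with XAV and 0 to 5 from day 2 to day 3. With cell line as a replicate block, 20 member regions were called in KO against WT, 89 with CHIR, 21 with XAV and 5 from day 2 to day 3, so the pairing moved no count by over 1.5 times. The block ended 1 named KO call, that of Wnt8a 5.2 kb downstream (adjusted p = 0.0509). The other settings (any overlapping record, a floor at the 10th percentile, quantile normalization, a 50 kb window) kept these counts within 1.5 times, although the 10th percentile floor ended 7 of the 21 named KO calls and 5 of the 19 with XAV, and the 3 comparisons with 0 calls had 0 under every setting. Read depth is unknown, and differences against libraries without a record depend on the floor, which also makes their standard errors and p-values too small.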
